A study of Mus musculus with 9 samples.

Results

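The genes described here are 35 mouse genes for the machinery by which cells hold on to their matrix. They comprise 25 integrin chains, the discoidin domain receptors *Ddr1* and *Ddr2*, and 8 focal adhesion proteins. They were taken by symbol from the 55471 genes listed in the files. Of the 35, 30 had enough counts to be tested among 15362 genes, and the other 5 (*Itgae*, *Itgal*, *Itgam*, *Itgax* and *Itgb6*) did not.

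RNA was sequenced from 9 cultures of primary articular chondrocytes, the cells of joint cartilage, taken from knee cartilage (tibial plateaus and femoral condyles) of wild-type mice at postnatal day 5. There were 3 cultures in each group. Control cells received Ad-Control, the control adenovirus. Ad-OSCAR cells received an adenovirus that makes them express OSCAR, a collagen receptor. The third group received Ad-OSCAR and then 5-ASA (5-aminosalicylic acid), an anti-inflammatory drug. The annotations give 3 days of culture, 2 h of infection at 400 MOI (multiplicity of infection) and 36 h before 5-ASA, whereas the methods of the study give another MOI and other times. All plates, those of Control cells included, were coated with COLpep, a collagen peptide that binds OSCAR, and IL-1β was absent. No Control cells were treated with 5-ASA, so its effect without OSCAR was not analysed here. Neither the annotations nor the methods say that the 3 cultures of a group came from separate animals, so the p-values measure the spread between these cultures only.

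Integrins are pairs of one alpha and one beta chain that span the membrane. The alpha chain largely sets the ligand, and the beta chain binds talin and kindlin inside the cell. These link the integrin through vinculin, paxillin, the kinase FAK and the scaffold ILK to actin and to signaling. Integrins α1β1, α2β1, α10β1 and α11β1 bind collagen, of which α10β1 is the one typical of cartilage, whereas DDR1 and DDR2 are receptor tyrosine kinases that triple-helical collagen switches on.

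Total estimated counts were 19733448 to 28192740 per culture. The 10 chondrocyte marker genes summed to 16100 to 18300 TPM (a level scaled per transcript length and to a fixed sum per culture) in Control cultures. They summed to 1600 to 1740 TPM in Ad-OSCAR cultures and to 1700 to 1860 TPM in 5-ASA-treated cultures. *Col2a1* made up most of the Control sum, with a mean of 12100 TPM. Of the 10, 9 were lower in Ad-OSCAR than in Control cells, against 32.2% of all genes tested, and *Prg4* was higher (log2 fold change 1.86, SE 0.04). The Control cultures thus held high chondrocyte markers, as their label says, beside the fibroblast markers given below. With OSCAR, 9 of the chondrocyte markers moved in the same direction as 3 of the 4 collagen-binding alpha chains described below. Their part in those results was not tested. In bulk RNA, fewer cells of a type and less RNA per cell cannot be told apart. The 5 fibroblast markers summed to 6460 to 6660 TPM in Control, 8050 to 8490 TPM in Ad-OSCAR and 9040 to 9150 TPM in 5-ASA-treated cultures, with 2 of them higher and 3 lower in Ad-OSCAR than in Control cells.

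Upstream sequences are shown for the 3 of 4 collagen-binding alpha chains whose mRNA fell in Ad-OSCAR cells, and for the vinculin gene, which also fell. *Itga2*, which did not fall, is left out. *Itga6* and *Tln2* fell more than vinculin and are not shown, so the windows are a selection. Each is the 250 bases directly before the gene's start in RefSeq (GRCm38.p6), read 5′ to 3′ on the strand of the gene. *Itga1* lies on the minus strand (window chr13:115101965-115102214), and *Itga10* (chr3:96645334-96645583), *Itga11* (chr9:62677605-62677854) and *Vcl* (chr14:20929148-20929397) lie on the plus strand. Capitals mark every match, on either strand, to the TEAD motif (GGAATG), the GC box (GGGCGG), the AP-1 motif (TGANTCA), the SOX motif (AACAAT) or the CArG box, which binds serum response factor.

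*Itga1*: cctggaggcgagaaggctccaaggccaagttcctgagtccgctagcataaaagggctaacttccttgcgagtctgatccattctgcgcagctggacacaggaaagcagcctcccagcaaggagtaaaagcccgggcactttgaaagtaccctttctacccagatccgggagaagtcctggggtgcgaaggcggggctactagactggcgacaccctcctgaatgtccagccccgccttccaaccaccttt
*Itga10*: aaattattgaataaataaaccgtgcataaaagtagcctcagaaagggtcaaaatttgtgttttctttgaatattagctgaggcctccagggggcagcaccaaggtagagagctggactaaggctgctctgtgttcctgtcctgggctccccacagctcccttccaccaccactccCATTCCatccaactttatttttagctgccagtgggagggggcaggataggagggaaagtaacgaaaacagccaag
*Itga11*: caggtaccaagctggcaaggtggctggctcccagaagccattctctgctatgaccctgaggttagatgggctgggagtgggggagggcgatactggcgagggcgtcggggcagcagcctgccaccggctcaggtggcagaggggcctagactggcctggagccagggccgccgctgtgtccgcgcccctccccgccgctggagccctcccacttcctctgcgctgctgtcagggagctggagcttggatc
*Vcl*: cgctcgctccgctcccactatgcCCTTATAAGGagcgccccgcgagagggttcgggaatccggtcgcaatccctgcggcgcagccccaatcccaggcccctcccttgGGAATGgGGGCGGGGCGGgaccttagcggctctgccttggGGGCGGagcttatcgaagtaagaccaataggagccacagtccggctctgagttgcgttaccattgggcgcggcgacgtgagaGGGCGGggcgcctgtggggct

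No match stands in the *Itga1* and *Itga11* windows, which says only that these letters are not there. The *Itga10* window holds the TEAD motif on the minus strand. The *Vcl* window holds a CArG box, a TEAD motif and GC boxes, and its TEAD motif lies beside one of them. RefSeq windows were at hand for 25 of the 35 genes. Each of these counted if any of its windows held the motif, whereas the background took a single window per gene. The shares below are therefore not counted alike, and the rule can favor the listed genes. The TEAD motif was found in 3 of the 25 (*Itga10*, *Itgb1* and *Vcl*), against 12.6% of all 27025 promoters of the same length. The CArG box was found in 3 (*Itgb6*, *Vcl* and *Fermt2*) against 1.4%, the GC box in 10 against 32.9%, the SOX motif in 3 (*Itga8*, *Itgax* and *Itgb6*) against 9.65%, and the AP-1 motif in 2 (*Itgax* and *Ddr1*) against 6.87%. These matches are a description of letters, and binding was not measured.

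The first question was what OSCAR overexpression did to these genes. In Ad-OSCAR cells, 10 of the 30 tested genes were higher and 15 lower than in Control at an adjusted p below 0.05 (quasi-likelihood F test of edgeR, Benjamini-Hochberg adjustment over all genes tested, used for every adjusted p below unless limma is named or a value is in TPM). Of all genes tested, 32.7% were higher and 32.2% lower. The share of these genes that was higher (33.3%) was near that background, and the share that was lower was 50.0%. Past the limit of the study (|log2FC| > 1.5 as well), 5 were higher and 3 lower, against 4.57% and 5.39% of all genes. The median log2 fold change over the 30 genes was -0.12, and over all genes 0.02. By role, 3 of 4 collagen-binding alpha chains, both DDRs and 6 of 8 focal adhesion proteins fell, whereas *Itga4*, *Itga7*, *Itga9*, *Itgb2* and *Itgb3* were the 5 that rose past the limit. The laminin-binding, RGD-binding and beta chains each held genes that rose and genes that fell, and roles were not compared by a test.

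Of the collagen-binding alpha chains, *Itga10* fell the most. Its level in CPM (counts scaled to library size, with TMM factors) was 28.1, 26.8 and 25.7 in the Control cultures, 5.84, 6.15 and 5.46 in the Ad-OSCAR cultures and 5.81, 6.60 and 6.36 with 5-ASA. All 6 infected cultures with OSCAR were therefore far below all Control cultures, and those with and without 5-ASA overlapped. *Itga10* was 4.63-fold lower in Ad-OSCAR than in Control cells (log2 fold change -2.21, SE 0.08, adjusted p = 4.26e-14). With 5-ASA it did not pass the test (0.11, SE 0.09, adjusted p = 0.488), and its sign turned in TPM, where the value was -0.19. On the same strand, 33.5% of the exonic bases of *Itga10* are shared with *Gm42957*, which had 21 to 48 counts in Control, 11 to 15 in Ad-OSCAR and 12 to 17 in 5-ASA-treated cultures.

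*Itga1*, the alpha chain of the collagen IV-preferring α1β1, had 108, 109 and 103 CPM in Control. It had 52.8, 51.7 and 53.1 CPM in Ad-OSCAR cells and 75.3, 80.4 and 71.4 CPM with 5-ASA. The 3 groups did not overlap, and the treated cells lay between the other groups. The fall with OSCAR was 2.03-fold (log2 fold change -1.02, SE 0.05, adjusted p = 3.44e-12), and the rise with 5-ASA was 1.44-fold (0.53, SE 0.05, adjusted p = 1.09e-06). Treated cells still had 1.41-fold less *Itga1* than Control cells (adjusted p = 8.36e-08). On the same strand, *Gm49395* shares 3.68% of its exonic bases and had at most 53 counts in any culture.

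*Itga11*, the chain of the fibrillar collagen receptor α11β1, had 35.2, 31.7 and 34.9 CPM in Control cultures, 16.8, 17.7 and 14.9 CPM in Ad-OSCAR cultures and 22.7, 20.0 and 24.5 CPM in treated cultures. As for *Itga1*, no group overlapped another and the treated cells were intermediate. It fell 2.06-fold with OSCAR (log2 fold change -1.04, SE 0.08, adjusted p = 1.56e-09) and rose 1.36-fold with 5-ASA (0.45, SE 0.08, adjusted p = 0.000745). In TPM the rise with 5-ASA was 0.31 and missed the threshold (adjusted p = 0.0616, limma).

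*Itga2*, the chain of α2β1, was per length the least abundant of the 4 in Control. It lies on the minus strand of chromosome 13 (GRCm38, 114833081 to 114932100), next to *Itga1* (114953096 to 115101964) on the same strand. Its levels were 6.70, 6.94 and 6.34 CPM in Control, 7.94, 6.48 and 7.78 CPM in Ad-OSCAR and 5.23, 5.47 and 5.02 CPM in treated cells. Control and Ad-OSCAR cultures overlapped, and all treated cultures were below both. The difference with OSCAR was 0.15 on the log2 scale (SE 0.11, adjusted p = 0.215), and *Itga2* fell 1.42-fold with 5-ASA (log2 fold change -0.50, SE 0.11, adjusted p = 0.00274). On the log2(TPM + 1) scale, which understates low genes, the fall with 5-ASA was -0.32 and missed the threshold (adjusted p = 0.0574, limma). It was also lower in treated cells than in Control (-0.35, SE 0.11, adjusted p = 0.0111).

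*Itgb1*, the beta chain that all 4 pair with, was the most abundant of the 35 genes in every group, with a mean of 475 ± 14.0 TPM in Control, 416 ± 19.0 in Ad-OSCAR and 415 ± 10.9 in treated cells (SD, n = 3). Its CPM was 983, 1030 and 1020 in Control, 860, 854 and 905 in Ad-OSCAR and 927, 963 and 897 with 5-ASA. All Ad-OSCAR cultures were below all Control cultures, but by far less than for *Itga1*, *Itga10* and *Itga11*. *Itgb1* fell by 0.21 on the log2 scale with OSCAR (SE 0.04, adjusted p = 0.000248). The difference with 5-ASA was 0.09 (SE 0.04, adjusted p = 0.159), and it was -0.00 in TPM.

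Per length, the 4 collagen-binding alpha chains summed to 47.1 ± 1.02 TPM in Control, 20.6 ± 0.999 TPM in Ad-OSCAR and 25.1 ± 0.760 TPM in treated cells (SD, n = 3). The sum over all 17 integrin alpha chains was 315 ± 11.8 TPM in Control, 397 ± 26.2 in Ad-OSCAR and 390 ± 15.8 in treated cells, and *Itga7* alone carried its rise. Without *Itga7*, the other 16 summed to 293 ± 10.5 TPM in Control, 272 ± 26.0 in Ad-OSCAR and 269 ± 5.82 in treated cells. *Itga10* held 22.2% ± 1.31 of the collagen-binding sum in Control, 13.1% ± 0.501 in Ad-OSCAR and 8.95% ± 0.664 in treated cells. *Itga1* held 49.6% ± 2.12, 50.1% ± 1.10 and 56.5% ± 2.59, and *Itga11* held 24.8% ± 1.53, 28.0% ± 2.09 and 29.6% ± 3.77, in the same order. *Itga2* held 3.36% ± 0.113, 8.81% ± 0.994 and 5.02% ± 0.524. The make-up of the sum thus moved from *Itga10* towards *Itga2* with OSCAR, and towards *Itga1* with 5-ASA, as a description without a test. The length RSEM used for *Itga10* differed between cultures, from 3328 to 3940 bases in Ad-OSCAR and from 4114 to 4840 in treated cells, and its TPM share carries that difference.

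**Figure D1:**
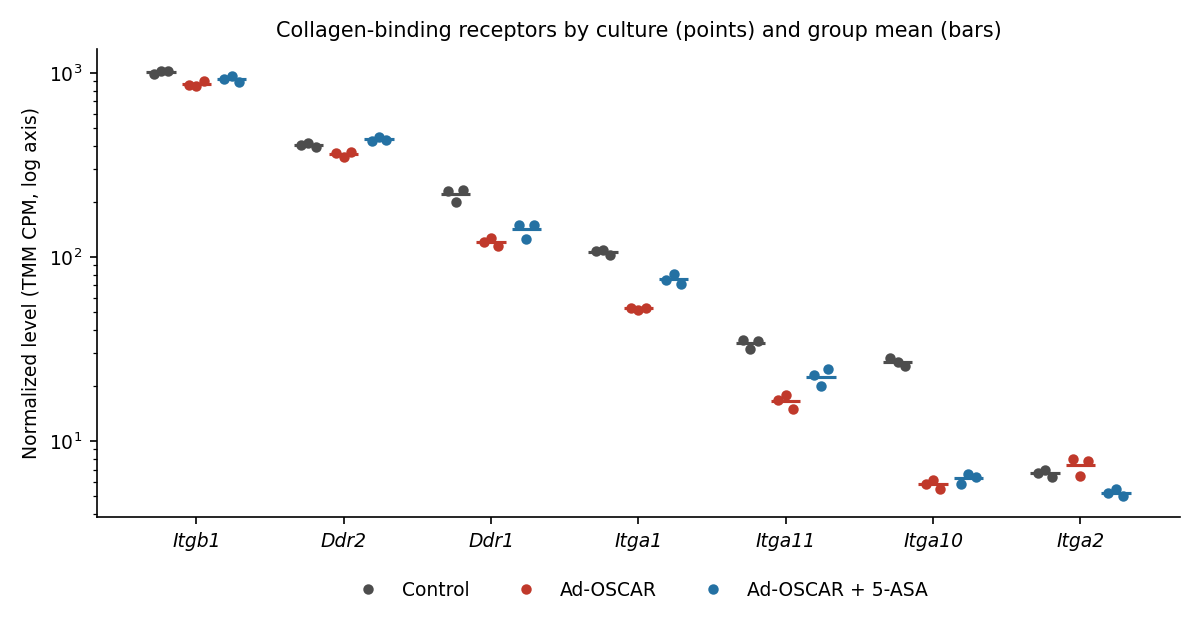
Level of the 7 collagen-binding receptor genes in each culture, in TMM-scaled CPM on a log axis, with points for cultures and bars for means of 3 cultures in Control (grey), Ad-OSCAR (red) and Ad-OSCAR + 5-ASA (blue). *Itga10* fell from 25.7 to 28.1 CPM in Control to 5.46 to 6.15 CPM in Ad-OSCAR cells and stayed near there with 5-ASA, whereas *Itga1* and *Itga11* lay between the other groups with 5-ASA.

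**Figure D2:**
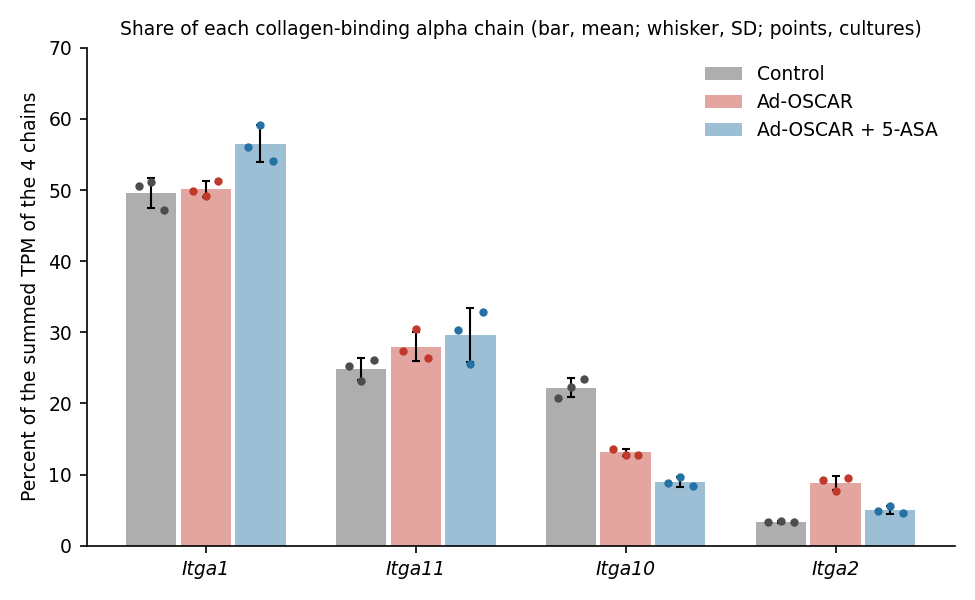
Share in percent of each of the 4 collagen-binding alpha chains in their summed TPM, with bars for the mean, whiskers for the SD and points for the 3 cultures of each group. The share of *Itga10* was 22.2% in Control, 13.1% in Ad-OSCAR and 8.95% in treated cells, and that of *Itga2* was highest in Ad-OSCAR cells at 8.81%.

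The discoidin domain receptors were lower with OSCAR and higher with 5-ASA. *Ddr1* had 228, 199 and 230 CPM in Control, 121, 126 and 115 CPM in Ad-OSCAR and 149, 125 and 149 CPM in treated cultures. Control was above all other cultures, and 1 treated culture lay within the range of the untreated ones. *Ddr1* fell 1.82-fold with OSCAR (log2 fold change -0.86, SE 0.07, adjusted p = 3.26e-09) and rose 1.17-fold with 5-ASA (0.23, SE 0.07, adjusted p = 0.0296). That rise lost its call without treated culture 1 (adjusted p = 0.145) or 3 (0.121) and without Ad-OSCAR culture 1 (0.0858) or 3 (0.127).

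*Ddr2*, the receptor that prefers fibrillar collagens, had 405, 418 and 398 CPM in Control, 367, 350 and 373 CPM in Ad-OSCAR and 425, 447 and 434 CPM in treated cells. Here the treated cultures were above all others, Control cultures included. It fell by 0.16 on the log2 scale with OSCAR (SE 0.04, adjusted p = 0.00283) and rose by 0.26 with 5-ASA (SE 0.04, adjusted p = 0.000281). The difference between treated and Control cells was 0.10 (SE 0.04, adjusted p = 0.0533) and was -0.06 in TPM. In TPM the rise with 5-ASA was 0.17 and missed the threshold (adjusted p = 0.0746).

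Of the laminin-binding alpha chains, *Itga7* and *Itga6* moved in opposite directions. *Itga7*, the alpha chain best known from muscle, had 39.9, 40.0 and 39.8 CPM in Control, 218, 225 and 214 CPM in Ad-OSCAR and 232, 208 and 244 CPM with 5-ASA. The OSCAR cultures with and without 5-ASA overlapped and were all far above Control. The rise was 5.49-fold (log2 fold change 2.46, SE 0.06, adjusted p = 9.99e-17), and *Itga7* became the most abundant alpha chain per length, from 21.7 ± 1.27 TPM in Control to 124 ± 0.340 TPM in Ad-OSCAR cells (SD, n = 3).

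*Itga6* had 60.3, 62.7 and 54.3 CPM in Control, 14.5, 15.4 and 15.9 CPM in Ad-OSCAR and 16.1, 15.2 and 14.5 CPM with 5-ASA. Again the OSCAR cultures overlapped with each other and not with Control. It fell 3.88-fold (log2 fold change -1.96, SE 0.06, adjusted p = 9.67e-15). *Itga3*, the third chain of this kind, did not pass the test with OSCAR (adjusted p = 0.278), at 55.8 ± 1.51 CPM in Control and 53.0 ± 2.95 CPM in Ad-OSCAR (SD, n = 3). It rose by 0.21 with 5-ASA (SE 0.06, adjusted p = 0.0134), a call lost without Ad-OSCAR culture 3 (0.0799) or treated culture 1 (0.0585) or 3 (0.0654).

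*Itga9* and *Itga4*, a pair of related alpha chains that bind VCAM1, osteopontin and fibronectin or tenascin C, had the largest rises of the 30 genes in counts. *Itga9* had 6.47, 5.88 and 7.03 CPM in Control, 50.9, 53.1 and 49.8 CPM in Ad-OSCAR and 63.2, 66.0 and 67.8 CPM in treated cultures. The groups did not overlap, and the treated cultures were the highest. It rose 7.98-fold with OSCAR (log2 fold change 3.00, SE 0.07, adjusted p = 6.73e-17) and a further 1.28-fold with 5-ASA (0.36, SE 0.05, adjusted p = 5.65e-05). On the log2(TPM + 1) scale, which shrinks the rise of a gene this low in Control, the rise with OSCAR was 2.13, below the 2.46 of *Itga7*. The rise with 5-ASA was 0.09 on that scale and did not pass the test (adjusted p = 0.585, limma). The length RSEM used for *Itga9* was 2522 to 3592 bases in Control, 4366 to 5026 in Ad-OSCAR and 4824 to 6359 in treated cells.

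*Itga4* had 19, 27 and 30 counts in Control, 226, 180 and 184 in Ad-OSCAR and 134, 171 and 160 in treated cultures. It was therefore low everywhere, yet all cultures with OSCAR were far above Control. It rose 6.11-fold (log2 fold change 2.61, SE 0.17, adjusted p = 1.89e-10). Scaled to CPM, all treated cultures (5.15 to 6.32) were below the untreated ones (6.69 to 7.67), without passing the test (adjusted p = 0.121). On the log2(TPM + 1) scale, which understates low genes, the rise with OSCAR was 0.92. *Cerkl* covers 8.04% of its exonic bases on the other strand and had at most 22 counts in any culture.

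Of the alpha chains that bind RGD motifs, the integrin-binding letters of fibronectin and vitronectin, *Itga5* and *Itgav* were the most abundant in Control. *Itga5*, of the fibronectin receptor, did not pass the test in either comparison and had 98.2 ± 1.86 TPM in Control, 93.9 ± 4.61 in Ad-OSCAR and 93.6 ± 4.89 in treated cells (SD, n = 3). *Itgav* rose by 0.20 on the log2 scale with OSCAR (SE 0.06, adjusted p = 0.00728), which did not pass without Ad-OSCAR culture 1 (adjusted p = 0.055) or in TPM (0.221). *Itga2b*, the platelet chain, rose 1.94-fold (log2 fold change 0.96, SE 0.15, adjusted p = 1.50e-05) from 3.52 ± 0.467 to 6.77 ± 1.15 CPM. Of the platelet markers, *Gp9* had at most 1 count, *Pf4* at most 8, *Gp1bb* at most 25 and *Gp1ba* at most 29 in any culture. *Ppbp* was higher, with 55 to 85 counts. The summed level of all 5 was 6.36 to 10.3 TPM in Control and 6.45 to 7.02 TPM in Ad-OSCAR cultures.

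*Itga8*, whose integrin binds nephronectin, had 2.45, 3.29 and 2.43 CPM in Control, 1.32, 2.05 and 1.60 CPM in Ad-OSCAR and 3.19, 2.92 and 2.81 CPM in treated cells. Treated and Control cultures overlapped, and both were above all Ad-OSCAR cultures. It fell 1.67-fold with OSCAR (log2 fold change -0.74, SE 0.20, adjusted p = 0.0032) and rose 1.81-fold with 5-ASA (0.85, SE 0.19, adjusted p = 0.00406), on 39 to 83 counts in these cultures. On the log2(TPM + 1) scale the rise was 0.26 and missed the threshold (adjusted p = 0.171).

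Among the 5 beta chains tested outside the leukocyte group, *Itgb3*, the partner of αv in the vitronectin receptor, changed the most. It had 5.00, 3.90 and 4.33 CPM in Control, 21.7, 20.0 and 21.3 CPM in Ad-OSCAR and 14.8, 14.9 and 17.1 CPM in treated cells. The 3 groups did not overlap. It rose 4.78-fold with OSCAR (log2 fold change 2.26, SE 0.10, adjusted p = 5.33e-13) and fell 1.35-fold with 5-ASA (-0.43, SE 0.08, adjusted p = 0.000837), remaining above Control. On the log2(TPM + 1) scale the rise with OSCAR was 1.67. *Itgb8*, whose αv pair activates latent TGF-β, rose 1.60-fold with OSCAR (0.68, SE 0.08, adjusted p = 8.13e-07) from 25.6 ± 2.71 to 40.9 ± 4.61 CPM and was at 40.5 ± 1.99 CPM with 5-ASA.

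*Itgb5* was the second most abundant beta chain in every group, at 163 ± 6.37, 165 ± 4.99 and 163 ± 7.13 TPM in Control, Ad-OSCAR and treated cells, and passed no test. *Itgb4*, the hemidesmosome chain, fell by 0.41 on the log2 scale with OSCAR (SE 0.15, adjusted p = 0.0229), and this call was lost without Control culture 1 (0.0719) or Ad-OSCAR culture 3 (0.0965). *Itgb6*, an epithelial chain that was not tested, had 4, 6 and 3 counts in Control, 0, 0 and 1 in Ad-OSCAR and 0, 2 and 0 in treated cells. Over all 8 beta chains the summed level was 651 ± 13.2 TPM in Control, 606 ± 15.4 in Ad-OSCAR and 597 ± 6.24 in treated cells, of which *Itgb1* held 72.9%, 68.5% and 69.5%.

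Among the leukocyte chains, *Itgax*, *Itgam*, *Itgal* and *Itgae* were near the limit of detection, and *Itgb2* and *Itgb7* had enough counts to be tested. *Itgax* had 0 counts in every culture, which allows up to 3 counts per culture, and *Itgam*, *Itgal* and *Itgae* had at most 2, 5 and 6. *Itgb2*, the shared beta chain of leukocyte integrins, was above this level with 11, 14 and 10 counts in Control, 51, 47 and 51 in Ad-OSCAR and 58, 53 and 40 in treated cells. All cultures with OSCAR were above Control, and *Itgb2* rose 3.36-fold (log2 fold change 1.75, SE 0.25, adjusted p = 5.64e-06). On the log2(TPM + 1) scale this rise was 0.64.

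*Itgb7*, which pairs with α4 and αE, had 3.68, 4.03 and 3.70 CPM in Control, 8.11, 8.86 and 7.78 CPM in Ad-OSCAR and 4.89, 5.51 and 5.38 CPM in treated cells. The groups did not overlap, and the treated cells lay between the others. It rose 2.16-fold with OSCAR (log2 fold change 1.11, SE 0.11, adjusted p = 7.03e-08) and fell 1.57-fold with 5-ASA (-0.65, SE 0.10, adjusted p = 0.000195). Beside these chains, the 10 leukocyte markers summed to 10.5 to 14.4 TPM in Control, 21.8 to 23.2 in Ad-OSCAR and 18.0 to 19.1 in treated cells. Of the defining markers, *Ptprc* had at most 2 counts, *Adgre1* at most 3 and *Cx3cr1* at most 1 in any culture. Of the 5 tested, *Cd68* and *Lyz2* were higher and *Laptm5* and *Mrc1* lower with OSCAR.

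Of the 8 focal adhesion proteins, 6 fell with OSCAR and 1 rose. *Tln2*, the second talin gene, had 138, 132 and 135 CPM in Control, 32.1, 34.0 and 30.2 CPM in Ad-OSCAR and 41.2, 43.4 and 46.8 CPM with 5-ASA. The groups did not overlap, and the treated cells stayed nearer to Ad-OSCAR than to Control. It fell 4.22-fold (log2 fold change -2.08, SE 0.06, adjusted p = 5.79e-16) and rose 1.37-fold with 5-ASA (0.45, SE 0.06, adjusted p = 2.58e-05). In TPM the rise was 0.24 and missed the threshold (adjusted p = 0.0836). *Tln1*, the talin with the higher level (147 ± 5.09 TPM against 24.9 ± 0.965 TPM in Control; SD, n = 3), fell by 0.53 on the log2 scale with OSCAR (SE 0.06, adjusted p = 1.28e-07).

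Vinculin (*Vcl*), which reinforces the link from talin to actin, had 334, 328 and 326 CPM in Control. It had 130, 127 and 127 CPM in Ad-OSCAR and 174, 175 and 178 CPM in treated cells, so that no group overlapped another and the treated cells lay nearer to Ad-OSCAR. It fell 2.58-fold with OSCAR (log2 fold change -1.37, SE 0.04, adjusted p = 2.99e-15), short of the limit of the study, and rose 1.37-fold with 5-ASA (0.46, SE 0.04, adjusted p = 5.13e-07). On the other strand, *Ap3m1* covers 25.5% of the exonic bases of *Vcl*, and had a mean of 110 CPM in both Control and Ad-OSCAR and 112 CPM in treated cells.

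*Ilk*, a scaffold of the kindlin complex, fell by 0.57 with OSCAR (SE 0.05, adjusted p = 5.69e-09), and *Fermt2*, the kindlin of most adherent cells, by 0.32 (SE 0.05, adjusted p = 7.10e-06). The kinase gene *Ptk2* (FAK) fell by 0.27 (SE 0.05, adjusted p = 7.47e-05), and this was lost in TPM (adjusted p = 0.148). On the other strand, *Taf10* covers 76.7% of the exonic bases of *Ilk* and was lower by 0.18 (adjusted p = 0.0389), and *Rrp8* covers 12.9% and was lower by 0.66 (adjusted p = 2.39e-08), more than *Ilk* itself. *Creb3* likewise covers 3.67% of *Tln1* and was lower by 0.51 (adjusted p = 1.67e-08). The part of these genes in the falls was not tested. *Pxn*, paxillin, passed no test, at 98.9 ± 7.92 CPM in Control, 94.0 ± 3.66 in Ad-OSCAR and 100 ± 6.19 in treated cells (SD, n = 3). *Fermt3*, the kindlin of blood cells, rose 1.92-fold with OSCAR (log2 fold change 0.94, SE 0.25, adjusted p = 0.0032) on 15 to 19 counts in Control and 26 to 54 in Ad-OSCAR cultures.

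The other overlaps were small or with genes of few counts. On the other strand, *E030013I19Rik* (5.05% of the exonic bases of *Itga8*), *Gm13684* (5.90% of *Itgav*), *Gm4577* (4.52% of *Ddr1*) and *3110045C21Rik* (0.972% of *Ddr2*) had at most 11 counts in any culture. *Mettl7b* overlaps *Itga7* by 9 bases, *Trpt1* overlaps *Fermt3* by 89 bases, and *B230344G16Rik* covers 7.66% of *Itgb4*. *Gm49368*, which shares 68.7% of *Itgam* on the same strand, had 0 counts.

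**Figure D3:**
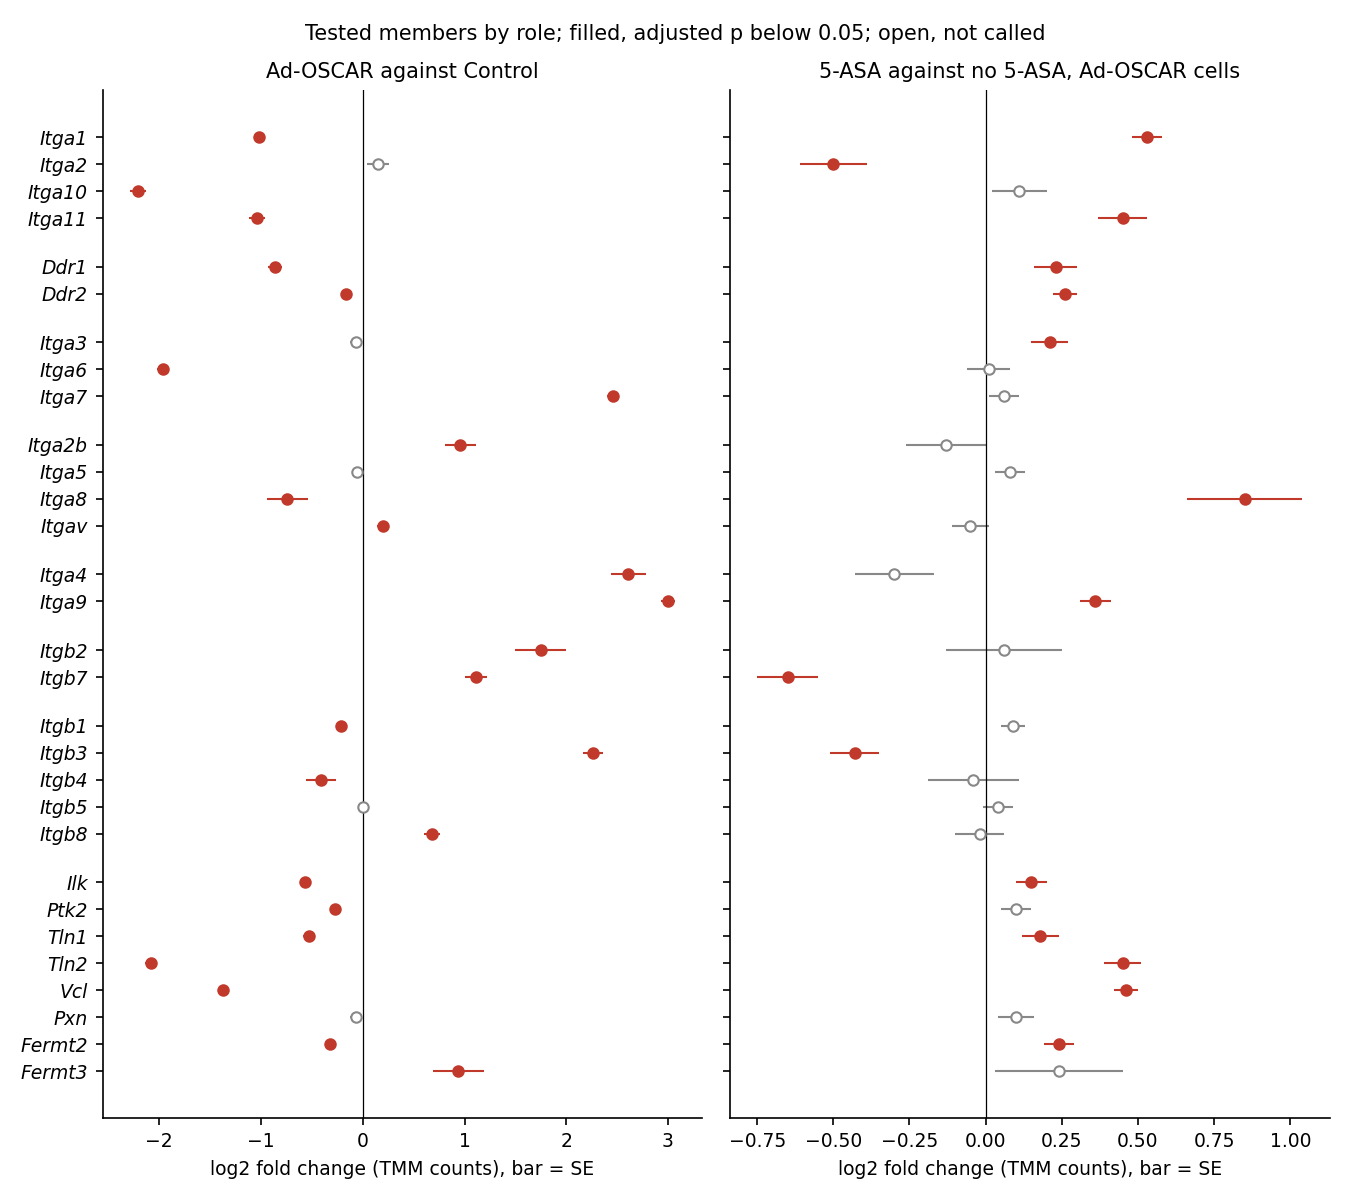
Log2 fold change of the 30 tested genes, grouped by role from collagen-binding alpha chains (top) to focal adhesion proteins (bottom), for Ad-OSCAR against Control (left) and 5-ASA against no 5-ASA in Ad-OSCAR cells (right), with bars for the SE and filled points for an adjusted p below 0.05. The scale at the left spans -2.21 (*Itga10*) to 3.00 (*Itga9*), and that at the right, drawn wider, -0.65 (*Itgb7*) to 0.85 (*Itga8*).

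**Figure D4:**
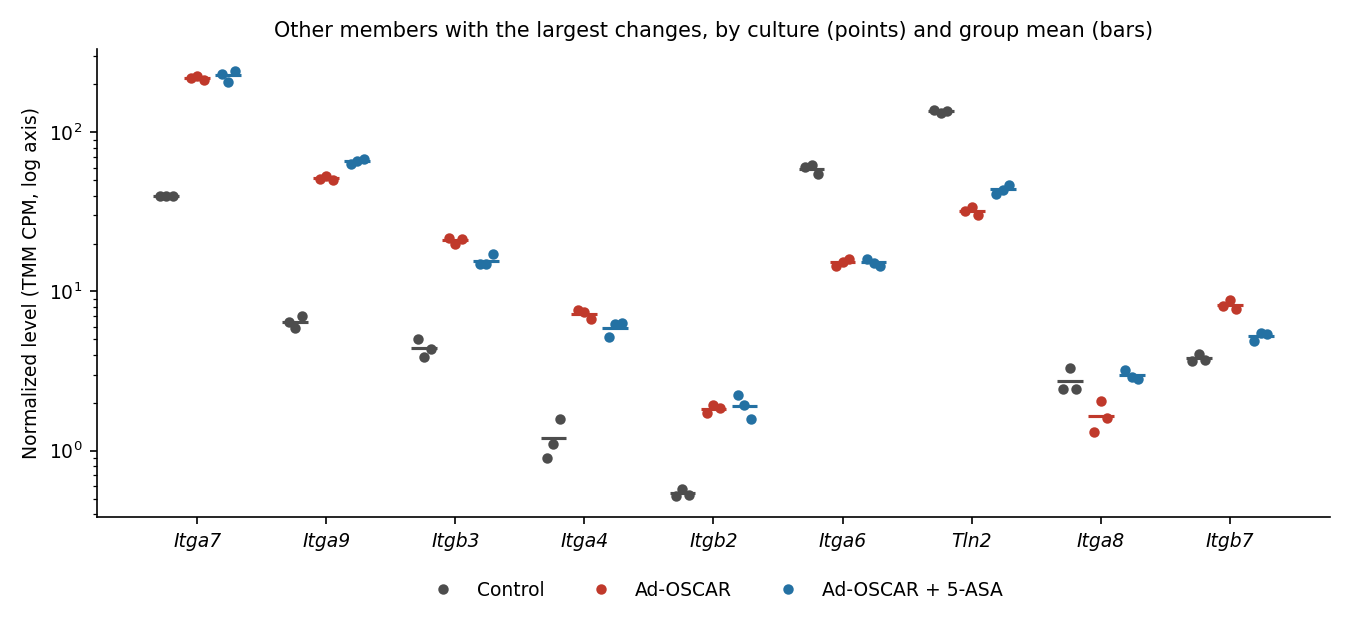
Level of 9 further integrin and talin genes in each culture, in TMM-scaled CPM on a log axis, with points for cultures and bars for means of 3 cultures in Control (grey), Ad-OSCAR (red) and Ad-OSCAR + 5-ASA (blue). *Itga7*, *Itga9*, *Itgb3*, *Itga4* and *Itgb2* were higher and *Itga6* and *Tln2* lower in every culture with OSCAR than in Control, whereas *Itga8* with 5-ASA overlapped with Control.

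The second question was how 5-ASA changed these genes in Ad-OSCAR cells. With 5-ASA, 12 of the 30 genes were higher and 3 lower than without it, against 10.4% and 7.38% of all genes. The study's criteria for 5-ASA were more than 1.5-fold and an unadjusted p below 0.05, which its methods word for treated against Ad-Control cells. Applied here to treated against untreated Ad-OSCAR cells, they gave 1 higher gene (*Itga8*) and 1 lower (*Itgb7*). Of all genes, 2.27% were higher and 1.87% lower by these criteria. The 12 that rose were *Itga1*, *Itga3*, *Itga8*, *Itga9*, *Itga11*, *Ddr1*, *Ddr2*, *Ilk*, *Tln1*, *Tln2*, *Vcl* and *Fermt2*, and the 3 that fell were *Itga2*, *Itgb3* and *Itgb7*. The median log2 fold change was 0.10, and over all genes -0.00. In TPM, which moved the median of all genes to -0.08, the split was 2 higher and 2 lower, and 7 and 2 once the TPM was scaled by TMM, a setting chosen after seeing the data. The rises of *Ilk* (0.15, SE 0.05, adjusted p = 0.036) and *Tln1* (0.18, SE 0.06, adjusted p = 0.0307) were the least stable. That of *Ilk* was lost without any one of treated cultures 1 to 3, Ad-OSCAR cultures 1 or 3 or Control culture 1 (adjusted p = 0.053 to 0.164), and that of *Tln1* without treated culture 1 or 3 or Ad-OSCAR culture 1 or 3 (0.0741 to 0.156). *Fermt2* rose by 0.24 (SE 0.05, adjusted p = 0.00116) and missed the threshold in TPM (0.135).

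*Oscar* itself moved with 5-ASA. Its transcript had 3 to 4 counts in Control, a mean of 6660 ± 397 CPM in Ad-OSCAR and 3400 ± 404 CPM in treated cells (SD, n = 3), a fall of 0.97 on the log2 scale (SE 0.06, adjusted p = 1.76e-08). Its part in the differences with 5-ASA was not tested.

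Against Control cells, treated cells had 11 of the 30 genes higher and 13 lower, against 31.4% and 31.8% of all genes. This comparison shares its cultures with the other 2, so the values are given side by side only. All 4 collagen-binding alpha chains were lower in treated than in Control cells, by 0.50 (*Itga1*), 0.35 (*Itga2*), 2.10 (*Itga10*) and 0.60 (*Itga11*) on the log2 scale, where Ad-OSCAR cells without the drug differed by -1.02, 0.15, -2.21 and -1.04. On the log2(TPM + 1) scale, that of *Itga2* missed the threshold (adjusted p = 0.117, limma). *Vcl* was lower by 0.91 and *Tln2* by 1.63, against 1.37 and 2.08 without the drug. *Itga9* was higher by 3.35 against 3.00, and *Itga7* by 2.52 against 2.46. *Itga8* and *Fermt2* did not pass the test against Control (adjusted p = 0.608 and 0.132).

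Of the 30 genes, 24 had no overlap between Ad-OSCAR and Control cultures, against 69.0% of all genes tested. Between treated and untreated Ad-OSCAR cultures 16 had none, against 33.8%, and between treated and Control cultures 24, against 66.6%.

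Other genes of the adhesion complex, 36 of 38 of which could be tested, had 10 higher (27.8%, against 32.7% of all genes) and 19 lower (52.8%, against 32.2%) with OSCAR and none past the limit (edgeR), with a median log2 fold change of -0.17. The largest falls were in *Nedd9* (-1.06), a docking protein of FAK, *Rsu1* (-0.91), a partner of the ILK complex, *Tns2* (-0.88), a tensin, and *Actn4* (-0.77), an actinin that cross-links actin. The largest rises were in *Parvb* (1.39), a parvin bound to ILK, *Apbb1ip* (1.18), which brings talin to integrins, *Fblim1* (1.08), which binds filamin and kindlin, and *Ptk2b* (0.79), a kinase related to FAK. With 5-ASA, 15 of the 36 rose (41.7%, against 10.4% of all genes), among them *Fblim1* (0.39), *Palld* (0.38), *Flna* (0.36) and *Nedd9* (0.33), and only *Ptk2b* fell (-0.44; 2.78%, against 7.38%), with a median of 0.07.

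Of 28 genes for integrin ligands other than collagen, 27 were tested, of which 11 were higher (40.7%, against 32.7% of all genes) and 12 lower (44.4%, against 32.2%) with OSCAR (median -0.01). Tenascin C (*Tnc*, 2.22) and osteopontin (*Spp1*, 1.97), ligands of α9β1, rose, as did *Icam1* (0.88), the ligand of the leukocyte β2 integrins. Bone sialoprotein (*Ibsp*, -2.74), the laminin chains *Lama3* (-2.38) and *Lamb3* (-1.92), and the matricellular *Ccn2* (-1.71) fell. With 5-ASA, 13 of the 27 rose (48.1%, against 10.4% of all genes) and none fell at an adjusted p below 0.05 (edgeR; 0 at an unadjusted p below 0.05, also in DESeq2; 7.38% of all genes fell), with a median of 0.24. The largest of these rises were in *Ibsp* (1.27), *Postn* (0.84), *Ccn1* (0.58) and *Thbs1* (0.55).

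Of the collagen receptors outside these families, *Lair1* had 0 counts in every culture and *Gp6* at most 1. *Adgrg1*, an adhesion GPCR that binds collagen III, fell by 1.02 with OSCAR (SE 0.19, adjusted p = 0.000151). *Mrc2*, an endocytic collagen receptor, did not pass the test with OSCAR (adjusted p = 0.644) and rose by 0.26 with 5-ASA (SE 0.05, adjusted p = 0.00185).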

How the data were processed

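RNA was sequenced by the authors from 9 cultures, with 3 in each group. The authors trimmed reads with BBDuk, and the submitters' processing notes name FastQC, STAR 2.7.1a and RSEM 1.3.1 (the reporting summary names another RSEM version). The authors deposited RSEM's estimated counts, which need not be whole, TPM, and the effective length per gene, on GRCm38. FPKM was not used. The authors used a stranded mRNA library kit (TruSeq). How strand was set in counting is not given in the sources used here, so overlapping genes are named. Symbols came from GENCODE, which matched 55144 of 55471 identifiers.

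Estimated counts were rounded and tested in R 4.3.3 with edgeR 4.0.16 (TMM, filterByExpr by group, quasi-likelihood test, Benjamini-Hochberg over 15362 genes) in a joint model of the 9 cultures, group being its single term. The biological coefficient of variation was 5.11%. The method was also tested on simulated counts with known changes. TPM, tested as log2(TPM + 1) with limma 3.58.1, was an alternative, and TPM served for levels between genes. Other alternatives were DESeq2 1.42.0 (the study's test), RLE size factors, other filters, a replicate block, fits of just the pair of groups compared, and each culture left out. The members and lists were chosen with earlier results of these data known. Collagen-binding chains, *Itgb1*, the DDRs and members past |log2FC| 1.5 with OSCAR or 1.5-fold with 5-ASA are given by culture, with *Vcl* added after its values were seen. Up to 4 genes per direction with a mean of at least 1 CPM are named from the other lists, apart from a result that is not reported here. Intervals and the limit of 3 counts cover counting error only. Python 3.11.15, pandas 2.3.3, numpy 2.4.6 and matplotlib 3.10.9 were used for tables and plots.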

Additional observations from a re-analysis of the deposited data

How the results depend on the processing

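With OSCAR, 22 of the 25 genes called kept direction and call under every alternative, the exceptions being *Itgav*, *Itgb4* and *Ptk2*. With 5-ASA, 4 of 15 did (*Itga1*, *Vcl*, *Itgb3* and *Itgb7*). The other 11 all missed the threshold in TPM. The count of genes higher past |log2FC| 1.5 with OSCAR was 3 in place of 5 both in TPM and in TMM-scaled TPM, since *Itga4* and *Itgb2* are low and the pseudocount of 1 shrinks their folds. With 5-ASA, 2 genes were higher in TPM and 7 in TMM-scaled TPM in place of 12, and 0 in place of 1 were higher past the criteria of the study under both (limma; *Itga8* at 0.26 and 0.30). TMM-scaled TPM was chosen after seeing the data. Leaving out cultures gave 8 to 12 genes higher with 5-ASA, with 8 without treated culture 1 or 3 or Ad-OSCAR culture 3, and 1 to 2 lower past the criteria, the second being *Itga2* without Ad-OSCAR culture 2. Signs turned for 3 differences that were not called: *Itga10* with 5-ASA (-0.12 in TMM-scaled TPM, -0.19 in TPM), *Itgb1* with 5-ASA (-0.00 in TPM) and *Ddr2* in treated cells against Control (-0.06 in TPM). TPM moved the median of all genes to -0.08 with 5-ASA and to -0.05 in treated cells against Control. In TMM-scaled TPM *Itgb1* was at 0.09 and *Ddr2* at 0.02, so these 2 turned only with that shift. For *Itga10* the cause was not tested. The difference in *Ddr2* passed the test in DESeq2 (adjusted p = 0.046) and under 5 other alternatives (0.0329 to 0.0468), and the lower *Itgb1* of treated cells against Control was lost without treated culture 1 or 3 or Control culture 2 (0.0574 to 0.0703).

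With the replicate block, 10 genes were higher and 15 lower with OSCAR, 11 and 3 with 5-ASA (*Ilk* lost, adjusted p = 0.0605) and 9 and 13 in treated cells against Control. Cultures share only a number: deviations of same-numbered cultures correlated between -0.0724 and 0.0402, and 1 of 9 cultures correlated best with its own number. Genes with few counts, such as *Itgb2*, *Fermt3* and *Itga8*, have the widest errors.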
